A study of Homo sapiens with 2 samples.

Results

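The IL-6 family of cytokines and the genes of gp130 signalling were described in A549 cells, an established human lung adenocarcinoma line. The 9 genes were taken by symbol from the 16399 genes listed: the ligands IL6, IL11 and LIF, the receptor subunits IL6ST, IL6R, OSMR and LIFR, the transcription factor STAT3 and the inhibitor SOCS3. All 9 were listed and were expressed, which here means 1 CPM (count per 1000000 counts of the library total) or more in at least 1 library. They were selected on the CPM of IL6 and IL11, which was higher in the PKP2 library described below, so the differences below are a description, have no test and support nothing further. One library came from A549 cells labelled as vector and the other from A549 cells overexpressing PKP2, a desmosomal plaque protein, delivered with an SFB tag. Both groups were at passage 5, in DMEM with 10% FBS, and held 1 library each. The question addressed by the series is which genes lie downstream of PKP2.

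Cytokines of the IL-6 family signal through the shared receptor subunit gp130, the product of IL6ST. IL-6 and IL-11 each bind a receptor of their own (IL6R, IL11RA) before gp130 joins, whereas LIF binds gp130 with LIFR, and oncostatin M binds gp130 with OSMR or LIFR. Janus kinases on these receptors activate STAT3, which induces SOCS3 and acute-phase genes, and SOCS3 in turn blocks signalling at gp130. In airway and lung tumour epithelium the family is known for its part in inflammation, repair and tumour growth.

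The upstream sequences of IL6 and IL11 are shown because these were the members that differed most between the libraries. RefSeq promoter windows on GRCh38.p14 were found for 8 of the 9 genes, LIF being the exception, and the 250 bases before each start were searched on both strands for 6 motifs chosen with the sequences in view. Capitals mark the motif matches in the strand of the gene.
IL6 (chr7:22726950-22727199, plus strand): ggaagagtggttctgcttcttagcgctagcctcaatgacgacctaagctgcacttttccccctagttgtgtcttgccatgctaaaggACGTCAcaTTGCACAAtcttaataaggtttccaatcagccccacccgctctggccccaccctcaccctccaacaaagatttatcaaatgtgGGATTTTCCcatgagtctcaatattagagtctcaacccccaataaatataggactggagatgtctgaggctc
IL11 (chr19:55370464-55370713, minus strand): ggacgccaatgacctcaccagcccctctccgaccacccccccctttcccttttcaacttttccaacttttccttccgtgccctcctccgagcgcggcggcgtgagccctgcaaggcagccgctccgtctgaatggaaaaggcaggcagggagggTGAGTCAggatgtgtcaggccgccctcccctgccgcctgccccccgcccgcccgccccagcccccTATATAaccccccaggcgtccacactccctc

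In the IL6 window the capitals are, from left to right, a CRE core, a C/EBP match and an NF-kappaB match. The NF-kappaB match, searched as GGNNTTTCC, lay at bases -72 to -64 from the RefSeq start, and 5.48% of 35116 windows of the same length held this motif. The C/EBP motif (TTGCNNAA) was at -155 to -148 and is held by 9.05% of windows, and the CRE core (TGACGT, matched on the other strand) was at -163 to -158 and is held by 7.10%. In the IL11 window an AP-1 match (TGANTCA) lay at -96 to -90 and a TATA match (TATANA, on both strands) at -31 to -26, held by 6.57% and 17.7% of windows. Apart from the TATA match, which is the same bases read on both strands, the matches did not overlap each other. The 2 windows shared no motif. The STAT motif (TTCNNNGAA), held by 6.57% of windows, was in neither. Among the other members it was matched in the first and second of the LIFR windows, which also held TATA matches, and OSMR and the second LIFR window held a C/EBP match. Of the 11 windows of the members, 6 held none of the motifs, those of IL6ST, IL6R, STAT3 and SOCS3 among them. The SOCS3 windows (chr17:78360926-78361175 and chr17:78359668-78359917) miss the bases just before its annotated locus, which starts at 78360077 on the minus strand. Those bases were not searched, so a motif there would not have been seen. A match is a string of letters and not a measured binding site, and no binding was measured here.

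The libraries were close in depth, with total estimated counts of 16996976 for vector and 16808842 for PKP2. PKP2 itself was at 27.3 CPM with the vector and 268.0 CPM with PKP2, a ratio of 9.82 with an exact 95% counting interval of 8.92 to 10.8. The keratins KRT8 (5339 and 5416 CPM) and KRT18 (3875 and 3849 CPM) were abundant in both libraries, as in epithelial cells. Of the 10 expressed epithelial and A549 markers 5 had an interval above 1, among them KRT8 (ratio 1.01), KRT19 (1.13, 1.09 to 1.17) and CDH2 (1.16, 1.07 to 1.27). CDH1 (0.871, 0.797 to 0.952) and AKR1B10 (0.875, 0.864 to 0.885) had an interval below 1. Of all expressed genes 16.3% had an interval above 1 and 19.8% below 1. These shares were 31.9% and 35.0% at a mean of 100 CPM or more, where KRT8, KRT19 and AKR1B10 lie. EPCAM was low at 1.47 and 1.37 CPM and the lung lineage factor NKX2-1 was at 0.12 and 0.059 CPM. Of the 4 leukocyte markers analysed CD14 and CD68 were expressed. The leukocyte list summed to 82.2 and 86.2 CPM, of which CD68, a lysosomal protein, was 78.4 and 82.5 CPM. Fibroblast markers summed to 9.65 and 11.8 CPM, with COL1A1 at 8.12 and 10.4 CPM and FAP at 0 in the PKP2 library, and endothelial markers to 0.29 and 0.95 CPM with VWF at 0 in the vector library. The part of such cells in the differences was not tested. Ribosomal protein genes took 5.32% of counts with the vector and 6.16% with PKP2. With 1 library in each group no difference has a replicate check. Counting intervals cover counting error only, and every comparison is between these libraries rather than between the conditions.

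IL6 and IL11, which were selected for being higher in the PKP2 library, are described first. LIF, the most abundant ligand of the family in these cells, was at nearly the same level in both libraries. IL6 (Entrez ID 3569), the cytokine that gives the family its name, lies on chromosome 7 from 22725884 to 22732002 on GRCh38, plus strand. IL6 had 24 counts, 1.41 CPM, with the vector and 58 counts, 3.45 CPM, with PKP2. The PKP2 library was thus 2.44-fold higher for IL6, with a counting interval of 1.49 to 4.11 that reflects how few counts there were. The annotated IL6 locus extends upstream of the RefSeq start shown above and shares exonic bases with STEAP1B, and with an antisense gene not analysed here, on the opposite strand. STEAP1B had 1 count in each library.

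IL11 (Entrez ID 3589), a cytokine first known for its effect on blood platelets and also linked to fibrosis, lies on chromosome 19 from 55364389 to 55370463, minus strand. IL11 had 69 counts, 4.06 CPM, with the vector and 132 counts, 7.85 CPM, with PKP2, a ratio of 1.93 (1.44 to 2.63). LIF (Entrez ID 3976), leukaemia inhibitory factor, lies on chromosome 22 from 30240447 to 30246851, minus strand. LIF was at 197.4 CPM (3356 counts) with the vector and 192.9 CPM (3242 counts) with PKP2, a ratio of 0.977 (0.931 to 1.03). The interval of LIF included 1. It is not set against those of IL6 and IL11, since both were selected as higher.

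**Figure D1:**
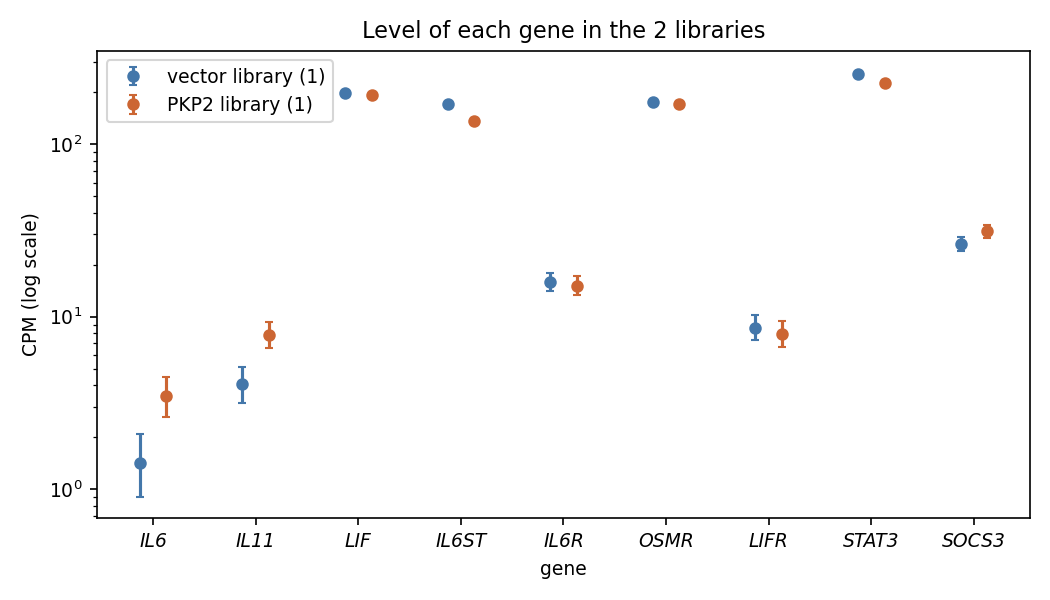
CPM of the 9 genes on a log axis in the vector library (blue) and the PKP2 library (orange), 1 library each, with exact 95% Poisson counting intervals as bars. IL6 (1.41 and 3.45 CPM) and IL11 (4.06 and 7.85 CPM) are the members whose points are farthest apart, and LIF, IL6ST, OSMR and STAT3 lie above 100 CPM in both libraries.

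On the log2(CPM + 1) scale used for calls, the difference, PKP2 minus vector, was 0.88 for IL6 and 0.81 for IL11. These were places 19 and 26 from the top of the 12820 expressed genes. The rule for calling a gene at least 1.5-fold higher, or lower, was a difference past log2 of 1.5 in that direction. By that rule 2 of the 9 members, IL6 and IL11, were higher and 0 were lower, where 0.733% of all expressed genes were higher and 0.788% were lower. Since both genes chose the set, nothing is read from this count. Low genes pass the rule more often: 3.19% of expressed genes with a mean under 5 CPM, where IL6 lies, and 1.02% of those with a mean of 5 to 10 CPM, where IL11 lies, were called higher. No member reached 2-fold on this scale, on which adding 1 CPM shrinks the difference of low genes such as IL6.

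The receptor subunits were level or lower in the PKP2 library, and IL6ST had the largest difference among them. IL6ST (Entrez ID 3572; chromosome 5, 55935095 to 55994993, minus strand), which encodes gp130, was at 170.3 CPM (2894 counts) with the vector and 136.5 CPM (2294 counts) with PKP2. This is 1.25-fold lower (1.18 to 1.32). OSMR (Entrez ID 9180; chromosome 5, 38845858 to 38945596, plus strand), the oncostatin M receptor subunit, was at 177.1 and 172.2 CPM, a ratio of 0.973 (0.924 to 1.02). OSMR thus differed by less than counting error.

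IL6R (Entrez ID 3570; chromosome 1, 154405193 to 154469450, plus strand), the subunit that binds IL-6 itself, was at 16.0 CPM (272 counts) with the vector and 15.2 CPM (255.01 counts) with PKP2. Its ratio was 0.948 (0.796 to 1.13), and the PKP2 count is fractional, as a counter gives that divides reads between genes or transcripts. LIFR (Entrez ID 3977; chromosome 5, 38474963 to 38608354, minus strand), the LIF receptor subunit, was at 8.65 and 7.97 CPM (147 and 134 counts), a ratio of 0.922 (0.724 to 1.17). Neither of these low receptors differed detectably at this depth. IL6ST and IL6R also have an annotated pseudogene copy each, IL6STP1 and IL6RP1. Exons of LIFR, OSMR, IL6ST, LIF and IL6 overlap genes on the opposite strand. Of these neighbours RICTOR, which overlaps OSMR, was 1.26-fold lower (1.12 to 1.42), at 36.7 and 29.1 CPM, and reads from overlapping bases cannot be assigned without the strand setting.

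STAT3 was slightly lower and SOCS3 slightly higher in the PKP2 library. STAT3 (Entrez ID 6774; chromosome 17, 42313324 to 42388568, minus strand), the transcription factor activated at gp130, was at 255.1 CPM (4336 counts) with the vector and 228.3 CPM (3838 counts) with PKP2. STAT3 was therefore 1.12-fold lower (1.07 to 1.17). SOCS3 (Entrez ID 9021; chromosome 17, 78356778 to 78360077, minus strand), the feedback inhibitor that STAT3 induces, was at 26.3 CPM (447 counts) and 31.2 CPM (525 counts). The ratio of SOCS3 was 1.19 (1.04 to 1.35), in the opposite direction to that of STAT3. The file measures RNA and says nothing on phosphorylated STAT3.

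**Figure D2:**
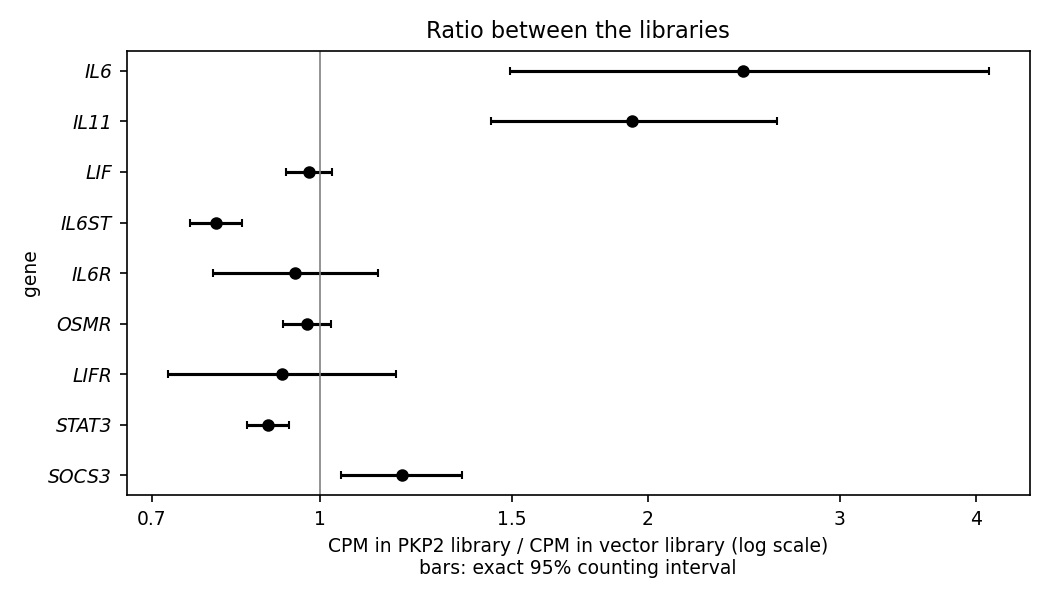
Ratio of CPM in the PKP2 library to CPM in the vector library for the 9 genes, on a log axis, with exact 95% counting intervals as bars and a line at 1. The intervals of IL6, IL11 and SOCS3 lie above 1, those of IL6ST and STAT3 below 1, and those of LIF, IL6R, OSMR and LIFR include 1.

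In all, 3 of the 9 intervals lay above 1, 2 below 1 and 4 included it. Of all expressed genes, 16.3% had an interval above 1 and 19.8% had one below 1. Where the mean reached 100 CPM, the range of IL6ST and STAT3, these shares were 31.9% and 35.0%, so an interval off 1 is common at that depth. Nothing about the members is read from these counts either.

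The differences of the receptors had the same sign as a trend fitted to transcript length and GC content together. Length and GC content were not separated. Over genes whose mean was at least 5 CPM, the median difference was 0.13 in the fifth with the shortest transcripts and -0.16 in the fifth with the longest. IL6 (1527 nucleotides) and IL11 (2281 nucleotides) have short transcripts, and IL6ST (9057 nucleotides) and LIFR (10089 nucleotides) have long ones. With a trend on length and GC content removed, IL6 lay at 0.81 instead of 0.88 and IL11 at 0.71 instead of 0.81, and both stayed past the 1.5-fold rule. IL6ST moved further, to -0.11 from -0.32, since the trend at its length and GC content was -0.21. SOCS3 moved to 0.15 from 0.24 and STAT3 to -0.12 from -0.16. LIFR (0.12 instead of -0.10) and OSMR (0.04 instead of -0.04) took the other sign, and their intervals included 1 to begin with. LIF lay at -0.07 and IL6R at -0.02.

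**Figure D3:**
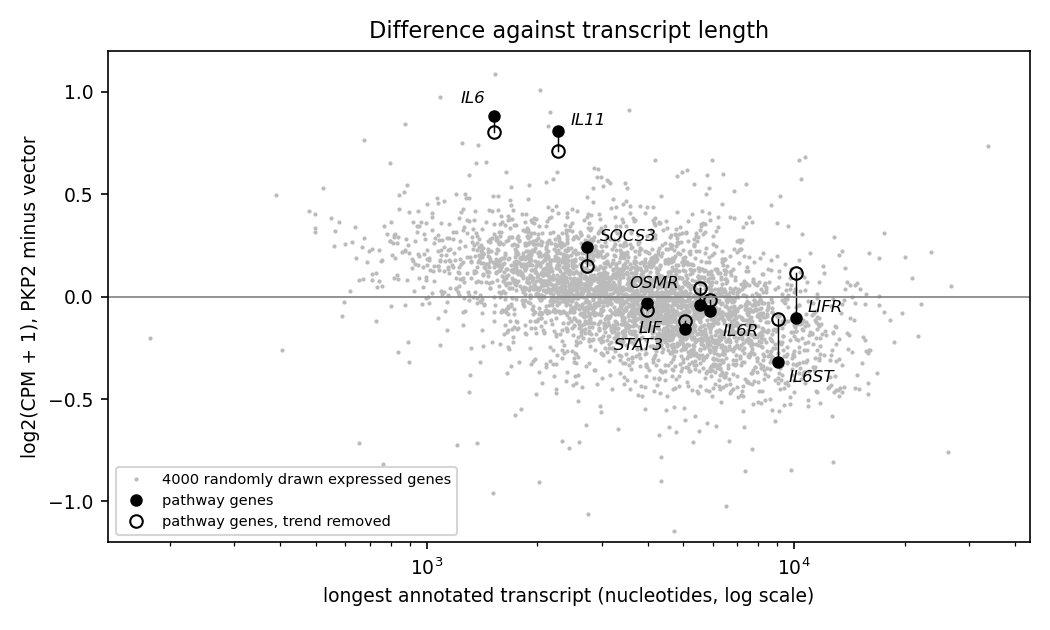
Difference in log2(CPM + 1), PKP2 minus vector, against the length of the longest annotated transcript on a log axis. Filled circles are the 9 genes, open circles their values after removal of the length and GC trend, and grey points 4000 randomly drawn expressed genes, those beyond 1.2 in size not shown. IL6 and IL11 stay near the top of the cloud, and IL6ST moves from -0.32 to -0.11.

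Levels of different genes were compared after scaling to the longest transcript, as TPM (counts per length, scaled to sum to 1000000), within each library. In the vector library the order was STAT3 at 139.4 TPM, LIF at 137.2, OSMR at 88.2, IL6ST at 51.8, SOCS3 at 26.5, IL6R at 7.46, IL11 at 4.91, IL6 at 2.55 and LIFR at 2.36 TPM. The counting intervals of the neighbours STAT3 and LIF overlapped, as did those of IL6 and LIFR. The interval of IL11 (3.82 to 6.21 TPM) lay just above that of IL6 (1.63 to 3.79 TPM). LIF was 53.8 times as high as IL6 per length, and OSMR was 37.3 times as high as LIFR, or 20.2 times with the median length of the annotated transcripts. Thus the receptor subunit for oncostatin M was abundant and that for LIF scarce, while among the ligands the one for LIFR was the abundant one. OSM, which encodes oncostatin M, had 1 count in each library.

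In the PKP2 library LIF came first at 128.4 TPM and STAT3 second at 119.6 TPM, followed by OSMR at 82.2, IL6ST at 39.8 and SOCS3 at 30.2 TPM. IL11 at 9.10 TPM (7.61 to 10.8) stood above IL6R at 6.78 TPM (5.97 to 7.66), with intervals that overlapped slightly. IL6 at 5.97 TPM (4.53 to 7.72) did not differ from IL6R beyond counting error, and LIFR was last at 2.09 TPM. Of the summed TPM of the 3 ligands LIF held 94.8% with the vector and 89.5% with PKP2. The share of IL11 was 3.39% and 6.34%, and that of IL6 was 1.76% and 4.16%. With the median transcript length in place of the longest, IL6R at 19.4 TPM stood above IL11 at 6.60 and IL6 at 4.23 TPM in the PKP2 library, so their order rests on the length used. Then 0 of the 9 genes kept its place in either library, but STAT3, LIF, OSMR and IL6ST were still the top 4.

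**Figure D4:**
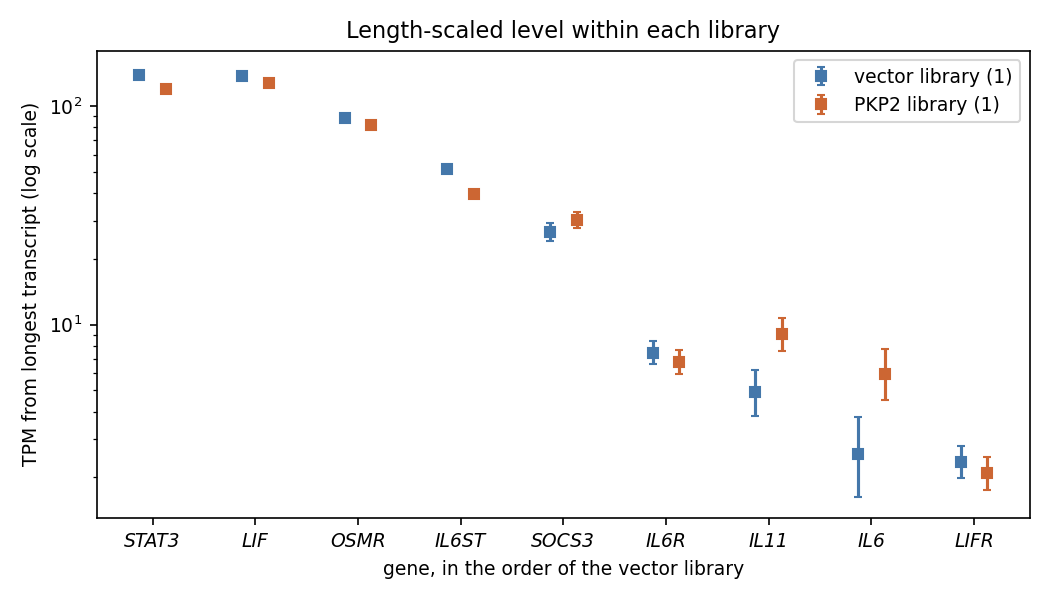
TPM computed from the longest annotated transcript for the 9 genes on a log axis, in the order of the vector library, with exact 95% Poisson counting intervals as bars (vector blue, PKP2 orange, 1 library each). STAT3, LIF, OSMR and IL6ST are above 30 TPM in both libraries, and LIFR is lowest in both.

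The other genes of the pathway were read from 7 lists, of which 83 genes were analysed and 75 were expressed. Of these 75, 4 were at least 1.5-fold higher in the PKP2 library (EBI3, ICAM1, SERPINA3 and SAA1) and 0 were lower, beside the 0.733% and 0.788% of all expressed genes. All 4 had a mean under 10 CPM, where more genes pass the rule. SAA1, at 0.85 CPM with the vector and 2.14 CPM with PKP2, counted as expressed only through the library where it was higher. By a 1.2-fold rule 16 of the 75 were higher and 7 lower, where 8.70% and 11.0% of all expressed genes were. By a 2-fold rule 0 were higher and 0 lower, where 0.0858% and 0.101% of all expressed genes were. The median difference of the 75 genes was -0.01 and that of all expressed genes was 0.00.

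Among the other ligands, 3 of 5 analysed genes were expressed, with a median difference of 0.15. EBI3, a subunit that IL-27 and IL-35 share, was at 4.29 CPM (73 counts) with the vector and 7.62 CPM (128 counts) with PKP2, a ratio of 1.77 (1.32 to 2.40). Its difference was 0.51 instead of 0.70 with the trend removed, below the 1.5-fold rule. CLCF1, a ligand of the ciliary neurotrophic factor receptor, was abundant and level at 67.5 and 65.5 CPM (ratio 0.970, 0.892 to 1.05). CTF1, IL27 and IL31 were not analysed here.

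Among the other receptors, 3 of 4 were expressed, with a median difference of 0.09. IL27RA, the IL-27 receptor subunit, was at 7.12 and 7.62 CPM, a ratio of 1.07 (0.828 to 1.38). IL11RA, the receptor that binds IL-11 itself, was low and level at 3.12 and 2.86 CPM (ratio 0.916, 0.607 to 1.38). IL31RA, which pairs with OSMR to bind IL-31, was at 2.65 and 4.46 CPM (45 and 75 counts), a ratio of 1.69 (1.15 to 2.50). Its difference of 0.58 was just short of the rule. IL11RA and IL31RA were named after their values were seen.

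The Janus kinases and the other STATs were expressed in 10 of 10 cases, with 1 interval above 1, 2 below 1 and a median difference of -0.04. These counts are near the 16.3% and 19.8% of all expressed genes. JAK1, the main kinase at gp130, was at 282.0 and 254.7 CPM, 1.11-fold lower (1.06 to 1.15). JAK2 was at 8.65 and 6.72 CPM, with a ratio of 0.777 whose interval of 0.603 to 1.00 reached 1. STAT5A, at 6.55 and 8.68 CPM, had a ratio of 1.33 (1.03 to 1.72) from fractional counts, which are uncertain because it is closely related to STAT5B.

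Negative regulators other than SOCS3 had 2 intervals above 1 and 6 below 1 among 13 expressed genes, beside 16.3% and 19.8% of all expressed genes. Their median difference was -0.10, and -0.04 with the trend removed. SOCS2, a relative of SOCS3 best known at the growth hormone receptor, was at 8.24 and 10.9 CPM, a ratio of 1.32 (1.05 to 1.66). PTPN6, a phosphatase that damps cytokine receptors, had a ratio of 1.21 (1.05 to 1.39). SOCS4, at 44.8 and 34.4 CPM, was 1.30-fold lower (1.17 to 1.46) and SOCS5, at 54.6 and 45.2 CPM, was 1.21-fold lower (1.10 to 1.33). After trend removal SOCS4 lay at -0.20 instead of -0.37 and SOCS5 at -0.16 instead of -0.27.

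Adaptors and shedding enzymes had 5 of 7 intervals below 1, beside 19.8% of all expressed genes and 35.0% of those with a mean of at least 100 CPM, where PTPN11 and ADAM10 lie. The median difference of the list was -0.26, which was -0.11 with the trend removed. GAB1, a docking protein of the SHP2 and ERK branch, had 153 counts with the vector and 99 with PKP2, 1.53-fold lower (1.18 to 1.99). Its difference of -0.54 did not pass the rule on the log2(CPM + 1) scale, and it was -0.35 with the trend removed. SOS1, which activates RAS in the same branch, had a ratio of 0.761 (0.695 to 0.834). The proteases ADAM10 and ADAM17, which cut IL6R from the cell surface, had ratios of 0.792 (0.759 to 0.827) and 0.833 (0.767 to 0.905). Once the trend was removed, SOS1 lay at -0.19 instead of -0.39, ADAM10 at -0.11 instead of -0.33 and ADAM17 at -0.10 instead of -0.26.

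Genes known as STAT3 targets had 11 intervals above 1 and 5 below 1 among 22 expressed genes, beside 16.3% and 19.8% of all expressed genes and 31.9% and 35.0% of those at 100 CPM. The 5 below 1 (FOS, MYC, MCL1, CCND1 and HIF1A, named after their values were seen) all lie in that upper range. Of the 11 above 1, JUNB, BCL2L1 and TIMP1, likewise picked with their values known, lie there too, with ratios of 1.12, 1.03 and 1.23. The median difference of the list was 0.10, and 0.03 with the trend removed. SERPINA3, an acute-phase protease inhibitor, was at 1.71 CPM (29 counts) with the vector and 4.16 CPM (70 counts) with PKP2, a ratio of 2.44 (1.56 to 3.90). SAA1, the acute-phase serum amyloid A, was at 0.85 and 2.14 CPM, a ratio of 2.52 (1.37 to 5.22) from fractional and therefore uncertain counts. ICAM1, an adhesion molecule, was at 4.82 and 8.86 CPM, a ratio of 1.84 (1.39 to 2.44). LCN2, an iron-binding secreted protein, was at 28.9 and 42.5 CPM, a ratio of 1.47 (1.31 to 1.65).

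CEBPB and IRF1, transcription factors of the acute-phase and interferon responses, had ratios of 1.28 (1.19 to 1.38) and 1.27 (1.12 to 1.45), the latter from fractional counts. With the trend removed SAA1 lay at 0.57 instead of 0.76, below the rule, LCN2 at 0.33 instead of 0.54 and CEBPB at 0.19 instead of 0.35. SERPINA3 at 0.86 and ICAM1 at 0.70 stayed past the rule. ICAM1, LCN2, SAA1 and CEBPB are also known to respond to other inflammatory signals, so the list is not particular to STAT3. HAMP, CRP, HP and ORM1 were not analysed here.

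Regulators of IL6 transcription and mRNA decay were expressed in 17 of 17 cases, with 5 intervals above 1 and 2 below 1, beside 16.3% and 19.8% of all expressed genes. Their median difference of 0.04 took the other sign, -0.01, with the trend removed. NFKBIZ, a nuclear cofactor of NF-kappaB at the IL6 gene, was at 20.9 and 26.0 CPM, a ratio of 1.24 (1.08 to 1.43). RELB, an NF-kappaB subunit, had a ratio of 1.23 (1.09 to 1.38), at 29.4 and 36.0 CPM. ZC3H12A, the RNase that degrades IL6 mRNA, also had a ratio of 1.23 (1.14 to 1.32), at 75.2 and 92.2 CPM. RC3H2, another factor of mRNA decay, was 1.17-fold lower (1.07 to 1.27), with a difference of -0.01 instead of -0.22 once the trend was removed. With the trend removed NFKBIZ lay at 0.33 instead of 0.30, RELB at 0.15 instead of 0.29 and ZC3H12A at 0.20 instead of 0.29.

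**Figure D5:**
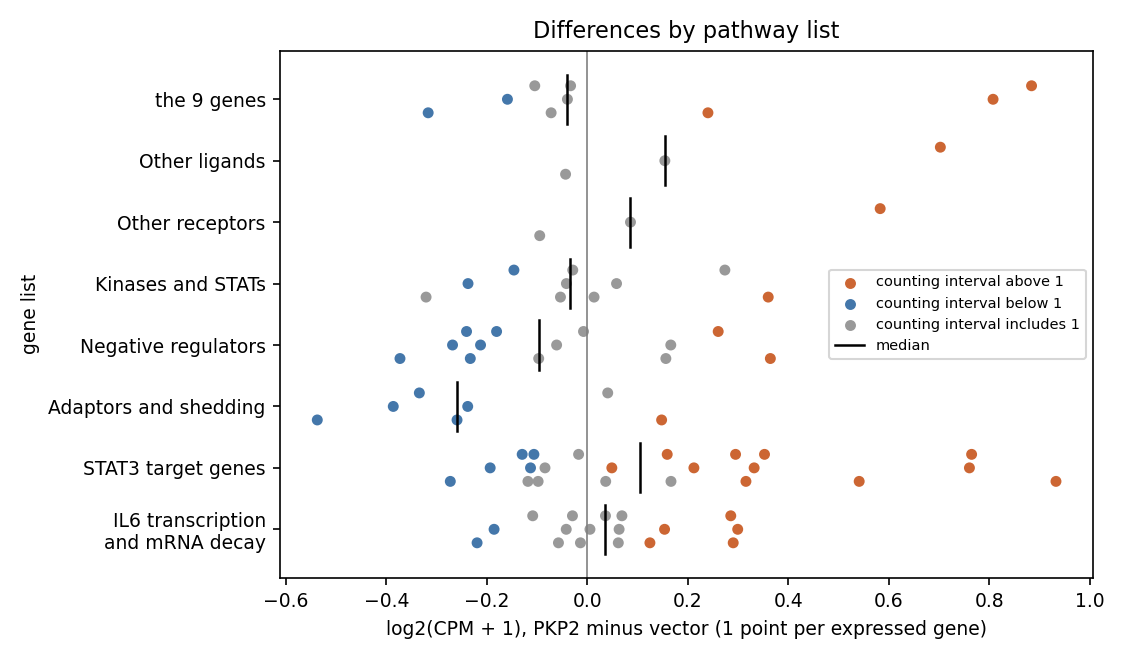
Difference in log2(CPM + 1), PKP2 minus vector, of each expressed gene in the 9-gene set and the 7 lists (1 point per gene, staggered vertically for legibility), with the list median as a black line. Orange points have a counting interval of the ratio above 1, blue points below 1 and grey points include 1. The STAT3 targets reach furthest to the right, and the adaptors and shedding enzymes have the lowest median, at -0.26.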

How the data were processed

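The authors deposited estimated counts per gene for each library, called counts per the file headers. They are fractional for some genes and not set to a common total. Per the submitters' processing notes, the tools were HISAT2 2.0.4, Bowtie2 and RSEM 1.2.12, on the build GRCh38.p12. Annotation, filters and strand setting were not given in the sources used here. RNA came from Trizol extracts and an Illumina TruSeq kit, per the labels' protocols.

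CPM was computed from the totals, with a pseudocount of 1 CPM for differences. Ratio intervals are exact 95% Clopper-Pearson intervals from rounded counts. Symbols came from RefSeq by Entrez ID (16183 of 16399 matched), and loci, lengths and GC content from GENCODE 29. The additive lowess trend (span 0.3, statsmodels 0.14.6) used 98.8% of expressed genes. The calculation was tested on simulated data. There the counting intervals and differences were checked only for genes at higher levels than IL6 and IL11. No p-value was computed, since each group has 1 library.

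The members and lists were chosen with earlier results of these data known. Named are the members, PKP2, and in each list genes past 1.5-fold and up to 4 with the largest difference at a mean of 5 CPM or more; exceptions are stated, and 1 gene that the rule takes is not reported here.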

Additional observations from a re-analysis of the deposited data

How the results depend on the processing

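IL6 and IL11 were the 2 members at least 1.5-fold higher with a pseudocount of 0.1 CPM, with either scaling and after removal of the length and GC trend. With a pseudocount of 5 CPM 0 members were higher, and by a 2-fold rule 0. By a 1.2-fold rule the same 2 members were higher and 1, IL6ST, was lower, where 8.70% and 11.0% of all expressed genes were. Nothing about the members is read from these counts. Of the other pathway genes 4 were higher, against 0 with a pseudocount of 5 CPM, 2 with the trend removed, 2 at a mean of 5 CPM or more, 16 at 1.2-fold and 0 at 2-fold. Among them 0 were lower, against 1 with a pseudocount of 0.1 CPM (GAB1) and 7 at 1.2-fold. The shares of all expressed genes by the 3 fold rules are given with the pathway lists above. For the other settings these shares were not computed, so nothing about the pathway is read from those counts. A larger pseudocount shrinks low genes by construction. With the median transcript length 0 of 9 members kept their place in the order of levels, against 9 of 9 with the principal transcript, an alternative chosen after seeing the data. No paired analysis was possible because each group has 1 library, and no library could be left out. The difference of IL6, from 24 and 58 counts, ranged from 0.40 to 1.23 over the pseudocounts.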
